A study of Mus musculus with 15 samples.

Results

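Brain gene expression in mice given MPTP followed by the low dose of a BTK inhibitor was compared with that in untreated control mice. The comparison used the 3 low-dose and the 3 control libraries, chosen by their titles, 6 of the 15 libraries of the series. MPTP is a toxin that damages dopamine neurons and is used to model Parkinson disease in mice. BTK, the Bruton tyrosine kinase, relays receptor signals in B cells and myeloid cells, which in the brain include microglia. The study's title names Nurr1, the nuclear receptor encoded by Nr4a2, as the gene of interest.

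Low-dose mice had 7 days of acclimation, then MPTP by intraperitoneal injection at 20 mg/kg/day for 1 week, and then the inhibitor by mouth for 4 weeks. The protocol gives the low dose as 1 µg/kg/day and the sample labels give 25 pM. Control mice were kept on a normal diet and had neither MPTP nor the inhibitor, so the contrast holds both agents together and cannot tell them apart by itself. The other groups are MPTP alone, MPTP with levodopa, and MPTP with the high dose of the inhibitor (2 µg/kg/day, or 50 pM on the labels), with 3 libraries each. The protocol speaks of 8 mice per group, and the labels do not say that each library is a separate mouse. The p-values therefore measure only the spread between these libraries, which may be technical. The sources used here name neither the inhibitor nor the strain, sex and age of the mice.

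Neurons respond to synaptic input by switching on immediate early genes, which encode transcription factors of the FOS, EGR and NR4A families and effectors such as Arc. In the forebrain they are strongly induced in excitatory neurons of cortex and hippocampus. Nurr1 belongs to the NR4A family, is needed for midbrain dopamine neurons to form and keep their transmitter identity, and is also induced by activity in other neurons. Such background does not come from these data.

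The labels say brain and name no region. General brain markers were present throughout, with the synaptic gene Snap25 at 1778 to 2759 CPM (reads relative to the library's total after TMM scaling), the myelin gene Mbp at 3399 to 7555 CPM and the astrocyte gene Gfap at 145 to 299 CPM in the 6 libraries. Total counts were 63314658 to 68257095 reads in controls and 58934299 to 61998459 reads in low-dose libraries. The 15 cerebellar list genes summed to 13850 CPM in control 2, against 1040 and 588.3 CPM in controls 1 and 3 and 711.4 to 867.3 CPM in the low-dose libraries. Gabra6, whose GABA receptor subunit is made by granule cells of the cerebellum, had 649 CPM in control 2 and at most 1.19 CPM in the other 5 libraries. Control 1 stood apart by striatal genes, with the dopamine receptor gene Drd1 at 89.5 CPM against 0.164 and 8.20 CPM in controls 2 and 3 and 52.5 to 60.9 CPM after the low dose. Control 3 resembled the low-dose libraries in the choroid plexus gene Ttr, at 857 CPM against 45.3 and 95.4 CPM in controls 1 and 2 and 846 to 1330 CPM after the low dose. Results are therefore given with and without control 2.

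With all libraries, 598 of 21821 genes tested were called higher after the low dose (2.74%) and 580 were called lower (2.66%), at an edgeR adjusted p under 0.05. Without control 2, 133 of 22334 genes were called higher (0.596%) and 115 lower (0.515%). Of these 248 genes, 227 were called in the same direction with all libraries, 126 of them higher and 101 lower, and 0 in the opposite direction. The spread in edgeR is pooled over all 5 groups, and levodopa 2 is a second library with high cerebellar genes. With control 2 and levodopa 2 both left out, 860 genes were called higher (3.85%) and 999 lower (4.48%), and 957 of these 1859 genes were also among the 1178 called with all libraries. The median log2 fold change over all genes was -0.01 with all libraries and 0.00 without control 2.

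The number of calls depended on single libraries. It was 78 without low-dose replicate 3, 248 without control replicate 2, 325 without control replicate 3, 487 and 610 without low-dose replicates 1 and 2, and 1444 without control replicate 1. Of the 69 called genes that are named below or in the closing section, 58 were not called without low-dose replicate 3 and 38 were not called without control replicate 2. With control 2 and levodopa 2 both left out, 60 of the 69 kept the call. The 9 that did not were Mef2c, Egr1, Bdnf, Dlgap3, Xbp1, Sdf2l1, Creld2, Aqp4 and Slc6a5. The groups did not overlap in 3052 genes that were higher after the low dose (14%) and 2661 that were lower (12.2%), and 1175 of the 1178 called genes were among them.

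**Figure D1:**
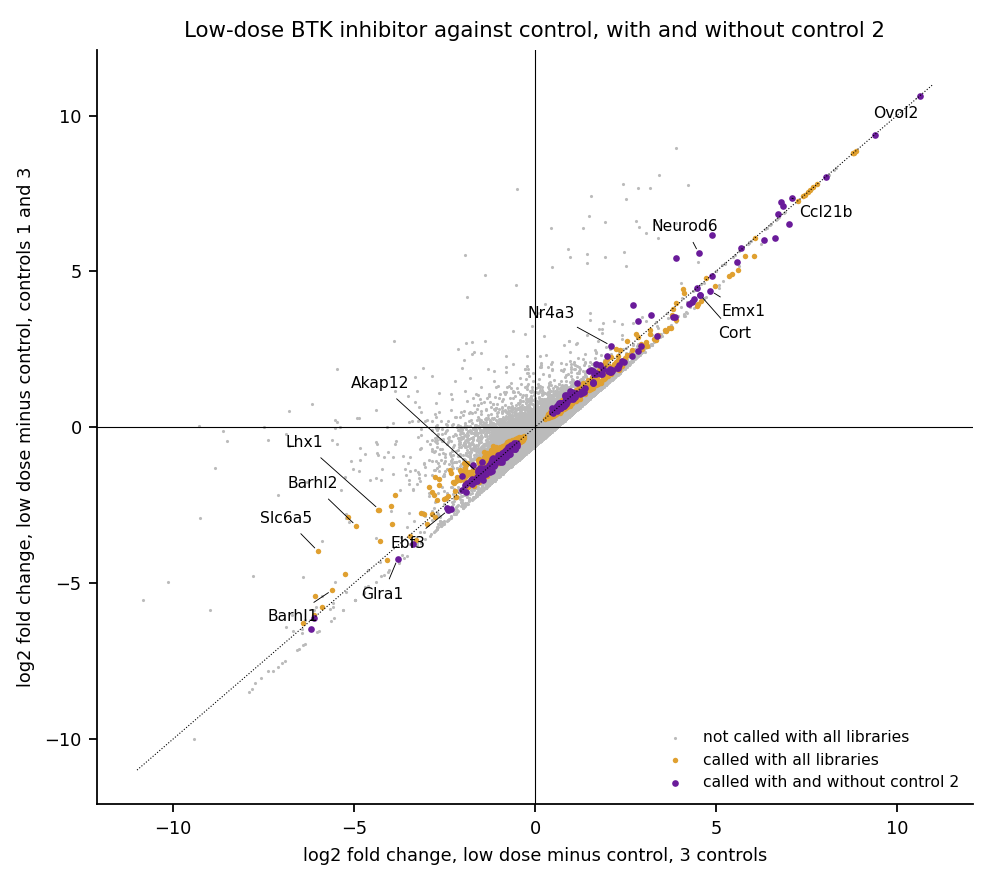
Log2 fold change of each gene, low dose minus control, with all 3 controls (x axis) and with controls 1 and 3 (y axis); grey points were not called, orange points were called with all libraries and violet points were called with and without control 2. The 227 violet points lie near the dotted line of equal values, and Lhx1, Barhl2 and Slc6a5 lie above it because their falls are smaller without control 2.

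Genes of excitatory neurons of cortex and hippocampus had the highest median of the gene lists with at least 5 tested members. Of 17 such genes, 5 were called higher, against 2.74% of all genes, and 0 lower (median log2 fold change 1.84, against -0.01 over all genes). Without overlap between groups 11 of the 17 were higher, against 14% of all genes. Neurod6, a transcription factor of these neurons (chromosome 6, 55677818 to 55681263 of GRCm38.p6), had 0.980, 7.03 and 2.23 CPM in controls 1, 2 and 3 and 69.6, 72.9 and 91.8 CPM in low-dose libraries 1, 2 and 3. All low-dose libraries were thus far above all controls. The log2 fold change was 4.52 (SE 0.76, edgeR adjusted p = 0.0137), and 5.60 without control 2 (adjusted p = 0.00897). Emx1, a homeobox gene that patterns the cortex, went from 0.164 ± 0.159 to 4.83 ± 0.804 CPM (mean ± SD, n = 3 libraries each in this and all later such pairs), a log2 fold change of 4.85 (adjusted p = 0.0166, and 0.0452 without control 2). Of the other called members, the cortical layer gene Tbr1 rose by 4.97 on the log2 scale and Mef2c, a transcription factor of neuronal maturation, by 2.18. Both lost the call without control 2, at adjusted p = 0.117 and 0.119. Neurod6 and Emx1 lost it without low-dose replicate 3, at adjusted p = 0.0507 and 0.0583, and were called without any other single library.

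These are bulk tissue values, in which fewer or more cells of a type cannot be told apart from less or more RNA per cell. The summed level of the 17 cortical and hippocampal genes was 991.3 to 1275 CPM in controls, 2972 to 3832 CPM after the low dose, 1482 to 3164 CPM after the high dose and 878.9 to 1026 CPM after MPTP alone. The share of cortical tissue in each library is not labelled, and its part in the results below was not tested beyond a fit with regional scores as covariates, in which 0 genes were called. That fit holds the score of this list itself as a covariate, so part of the loss is built in. In it 1347 of 21821 genes had an unadjusted p under 0.05, against 5326 without the covariates. Some genes pass that level even where no gene differs.

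Some peptide genes of interneurons rose as well. Of 12 interneuron genes, 3 were called higher, against 2.74% of all genes, and 0 lower (median 0.82). Without overlap between groups 6 were higher and 2 lower, against 14% and 12.2% of all genes. The summed level of the 12 genes went the other way. It was 1704, 2287 and 1474 CPM in controls and 1430, 1468 and 1454 CPM after the low dose, so each low-dose library lay below each control. Cort, which encodes the neuropeptide cortistatin (chromosome 4, 149125034 to 149126763), had 0.163, 0.0657 and 0.134 CPM in the controls and 3.27, 2.35 and 3.07 CPM after the low dose, a log2 fold change of 4.55 (SE 0.68, adjusted p = 0.00929). Cort kept its call in each of the 6 fits that left out 1 library, with adjusted p from 0.0138 to 0.0418. Cck, the gene of cholecystokinin, a peptide abundant in cortex, had 23.4, 17.4 and 43.6 CPM in controls and 146, 93.6 and 203 CPM after the low dose. Its log2 fold change was 2.39 (adjusted p = 0.0153), 2.13 without control 2 (adjusted p = 0.0452), and it lost the call only without low-dose replicate 3 among the single libraries (adjusted p = 0.0596). The neuropeptide Y gene Npy went from 9.82 to 19.4 CPM in controls to 37.1 to 53.7 CPM, and lost the call without control 2 (adjusted p = 0.0713). Like Cort, Cck and Npy, the summed level of cortical genes given above was higher in each low-dose library than in each control. Whether that level varied with the interneuron genes within groups was not tested.

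Some immediate early transcription factor genes rose, while Fos did not. Of 21 such genes, 5 were called higher, against 2.74% of all genes, and 0 lower (median 0.62). The groups did not overlap in 11 genes that were higher and 3 that were lower, against 14% and 12.2% of all genes, so the lower count is close to the background. Nr4a3, an orphan nuclear receptor of the Nurr1 family (chromosome 4, 48045078 to 48086447), had 9.16, 17.4 and 5.85 CPM in the controls and 45.7, 48.2 and 45.3 CPM in the low-dose libraries. The low-dose values lay close together and the controls were spread widely below them. The log2 fold change was 2.1 (SE 0.42, adjusted p = 0.0208) and 2.62 without control 2 (adjusted p = 0.0221). Klf10, a zinc finger factor induced by growth factor signals, went from 8.31 ± 3.56 to 32.8 ± 6.50 CPM (log2 fold change 1.98, adjusted p = 0.0222, and 0.0424 without control 2). Egr1, a zinc finger factor induced by synaptic activity, had 158, 88.1 and 73.1 CPM in controls and 293, 195 and 301 CPM after the low dose (log2 fold change 1.31, adjusted p = 0.0367). Fosl2 and Jund, which encode partners in the AP-1 complex, rose by 1.50 and 0.64 on the log2 scale. Without control 2, Egr1, Fosl2 and Jund were not called, at adjusted p = 0.113, 0.0623 and 0.0964. Nr4a3 and Klf10 reached their highest adjusted p, 0.0725 and 0.083, without low-dose replicate 3. Jund was not called in any fit that left out 1 library. With trends in transcript GC content and length removed, Klf10, Egr1 and Jund were not called (adjusted p = 0.0539, 0.0679 and 0.979).

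Fos, the founding immediate early gene, stood the other way. It had 38.1, 64.6 and 41.2 CPM in controls and 34.0, 22.0 and 27.0 CPM after the low dose, so that each low-dose library lay below each control. Its log2 fold change of -0.79 (SE 0.25) had an adjusted p of 0.078 and did not pass. Fos and Jund were named outside the rule for named genes, after their values were seen.

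Among genes that these factors and neuronal activity switch on, 4 of 20 were called higher, against 2.74% of all genes, and 0 lower (median 0.60). Arc, which regulates glutamate receptor removal at synapses (chromosome 15, 74669081 to 74672570), had 72.6, 16.8 and 25.2 CPM in controls and 214, 117 and 159 CPM after the low dose. Its log2 fold change was 2.09 (SE 0.48, adjusted p = 0.0308), and 1.72 without control 2 (adjusted p = 0.0777). Dusp6, a phosphatase that turns off ERK, went from 20.5 ± 4.64 to 50.0 ± 10.4 CPM and was called with and without control 2 (adjusted p = 0.0154 and 0.0452). Trib1, a pseudokinase, rose by 1.15 on the log2 scale and by 1.43 without control 2 (adjusted p = 0.0381 and 0.0424). The neurotrophin gene Bdnf had 9.41, 10.7 and 14.1 CPM against 17.7, 20.1 and 20.7 CPM (adjusted p = 0.0489) and lost the call in each of the 6 fits that left out 1 library. Dusp6 lost it only without low-dose replicate 3 (adjusted p = 0.0638), where Arc and Trib1 stood at 0.0905 and 0.136. Arc and Trib1 were not called with GC and length trends removed either (adjusted p = 0.054 and 0.0788). As given above, the summed level of the cortical list was also higher in each low-dose library than in each control. Whether it varied with these genes within groups was not tested.

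The study's gene of interest, Nr4a2 (chromosome 2, 57106830 to 57124003), did not pass. It had 4.56, 27.6 and 11.9 CPM in controls 1, 2 and 3 and 18.6, 17.6 and 21.3 CPM in low-dose libraries 1, 2 and 3. The low-dose values were alike and lay inside the wide control range, whose highest value came from control 2. The log2 fold change was 0.38 (SE 0.56, adjusted p = 0.714), 1.21 without control 2 (adjusted p = 0.241) and -0.05 without control replicate 1. Nr4a1, the remaining family member, had 47.9, 45.2 and 15.3 CPM in controls and 113, 57.5 and 77.2 CPM after the low dose. Its groups did not overlap, and its log2 fold change of 1.19 (SE 0.41) had an adjusted p of 0.105.

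The upstream sequences of Nr4a1 and Nr4a2 are shown because the NR4A genes hold the study's gene of interest and are known to be induced through CREB. The motif searched was TGACG, the core of the cyclic AMP response element that the factor CREB binds, on both strands, so that it reads CGTCA on the opposite strand. Each of the 3 NR4A genes held 4 matches in the 250 bases before its RefSeq start, marked in capitals in the sequences. Of 32851 RefSeq promoters of GRCm38.p6, 17.8% held at least 1 match in that window and 0.137% held at least 4. The Nr4a1 window is chr15:101266596-101266845 on the plus strand and lies within the longer gene record, before the start of an inner transcript. The Nr4a2 window is chr2:57124004-57124253 on the minus strand. Most of the Nr4a3 window lies inside the gene record, and its sequence is not shown.
Nr4a1: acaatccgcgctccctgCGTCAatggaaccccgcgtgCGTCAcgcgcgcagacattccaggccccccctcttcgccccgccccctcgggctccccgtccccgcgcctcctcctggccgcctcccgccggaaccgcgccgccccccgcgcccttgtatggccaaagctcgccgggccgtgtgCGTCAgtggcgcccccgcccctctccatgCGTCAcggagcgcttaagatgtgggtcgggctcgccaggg
Nr4a2: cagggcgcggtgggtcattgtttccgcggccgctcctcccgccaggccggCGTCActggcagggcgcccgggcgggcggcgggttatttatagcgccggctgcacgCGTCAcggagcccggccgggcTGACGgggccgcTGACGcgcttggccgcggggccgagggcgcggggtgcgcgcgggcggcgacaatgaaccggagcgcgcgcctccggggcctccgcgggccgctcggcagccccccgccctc
The complete palindrome TGACGTCA was in 1.79% of these promoters, each taken as 300 bases around the start, and in none of the 3 called immediate early genes with an entry. A match is a description of letters and not a measured binding site. Nr4a3 was called and Nr4a1 and Nr4a2 were not, and the changes of the 3 genes were not tested against each other.

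**Figure D2:**
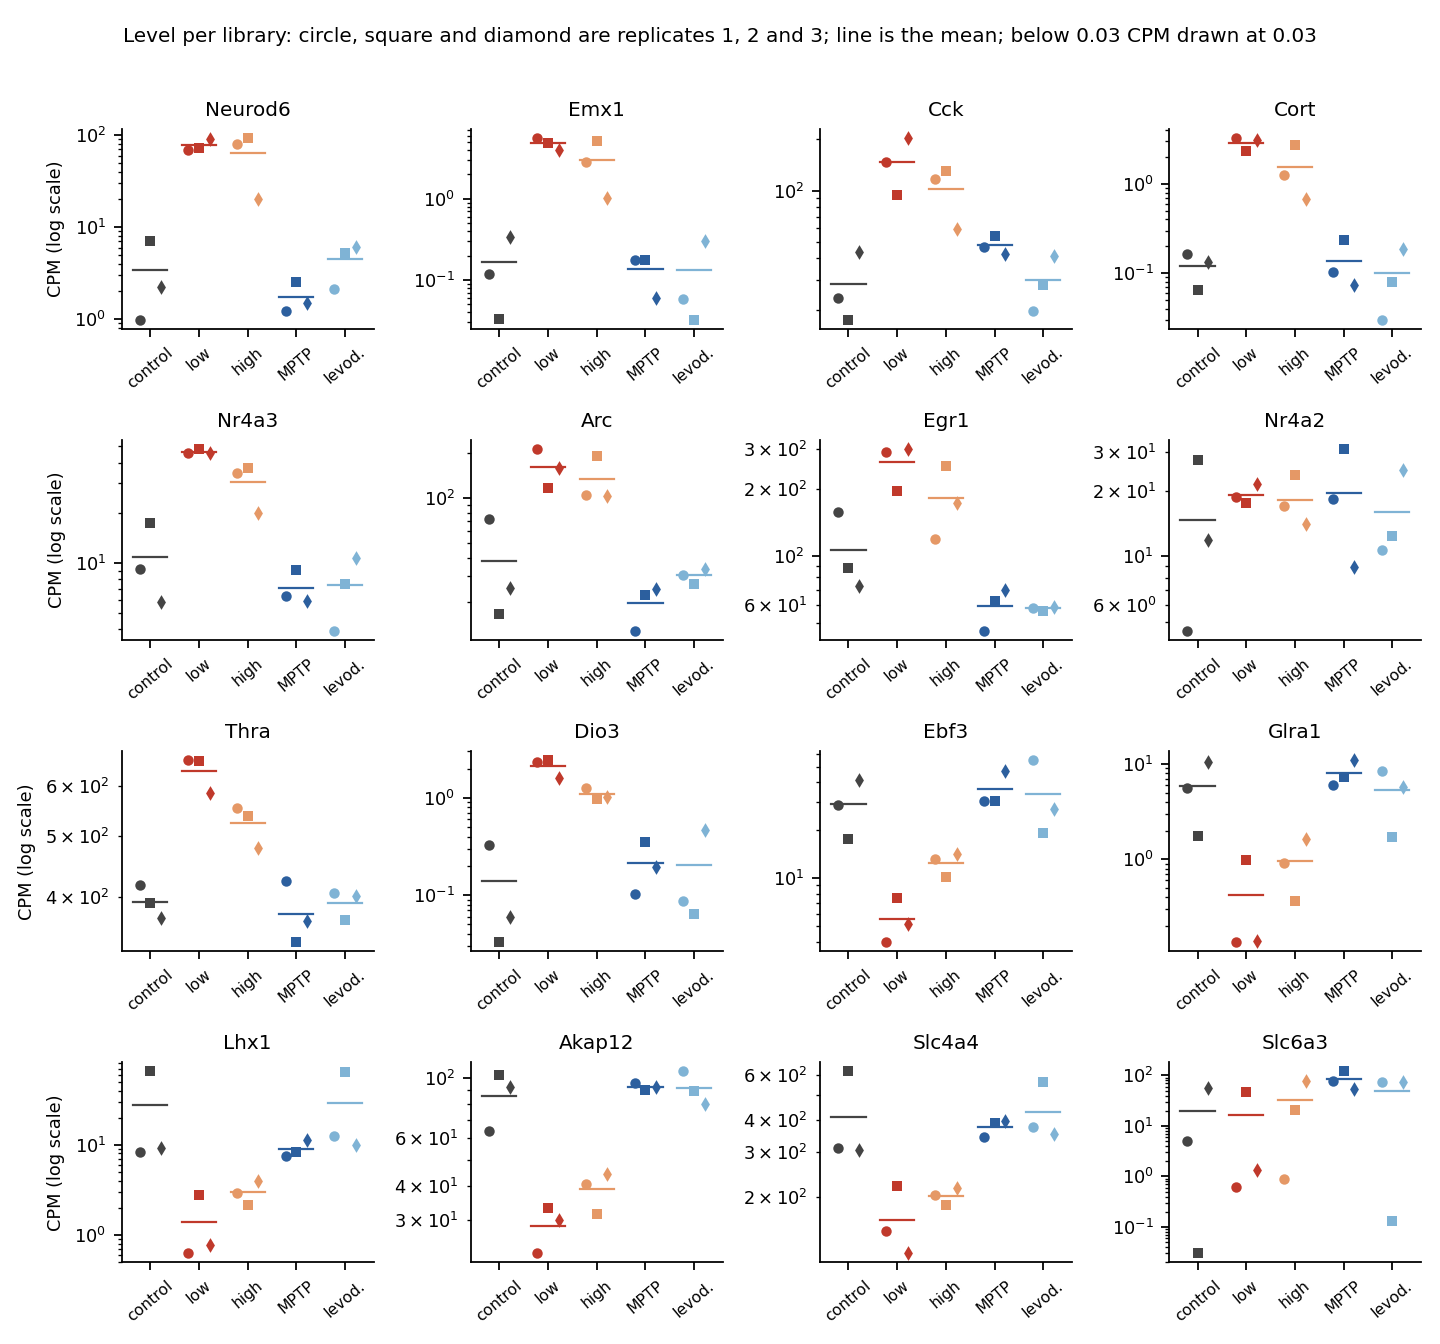
CPM on a log scale (y axis) of 16 genes in the 5 groups (x axis), with replicates 1, 2 and 3 as circle, square and diamond and the group mean as a line. The low-dose libraries lie above all controls in Neurod6, Cort, Nr4a3 and Thra and below all controls in Ebf3, Akap12 and Slc4a4, whereas Nr4a2 and Slc6a3 overlap.

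Genes of thyroid hormone handling rose in part. Of 9 such genes, 3 were called higher, against 2.74% of all genes, and 0 lower (median 0.62). Thra, the main thyroid hormone receptor of the brain (chromosome 11, 98740776 to 98769006), had 418, 391 and 370 CPM in controls and 660, 658 and 586 CPM after the low dose. The groups were clearly apart, with a log2 fold change of 0.69 (SE 0.11, adjusted p = 0.0111), and Thra kept its call in each of the 6 fits that left out 1 library (adjusted p from 0.0134 to 0.0445). Dio3, the enzyme that inactivates thyroid hormone, had 0.327, 0.0328 and 0.0594 CPM against 2.31, 2.44 and 1.59 CPM (log2 fold change 3.89, adjusted p = 0.0259). Without control 2, Dio3 was not called (adjusted p = 0.0713).

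Of 18 synaptic genes 1 was called higher, against 2.74% of all genes. This was the postsynaptic scaffold gene Dlgap3, at 163, 85.8 and 103 CPM against 259, 204 and 198 CPM (adjusted p = 0.0379). Dlgap3 lost the call without control 2 (adjusted p = 0.114).

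Markers of dopamine neurons did not separate the groups. Of 20 such genes 0 were called, with a median log2 fold change of -0.32 and of -0.82 without control 2. Th, which makes the dopamine precursor in the rate-limiting step, had 5.86, 7.42 and 27.9 CPM in controls and 7.41, 27.7 and 4.45 CPM after the low dose. Slc6a3, the dopamine transporter gene, had 5.11, 0 and 55.3 CPM in controls and 0.607, 47.1 and 1.35 CPM after the low dose. In each group a single library carried most of the signal, control 3 and low-dose 2. The log2 fold changes of Th and Slc6a3 were -0.06 (SE 0.94) and -0.30 (SE 2.01), with adjusted p = 0.978 and 0.945. Those of the dopamine synthesis gene Ddc and the vesicle transporter gene Slc18a2 were -0.22 and -0.34, and when control replicate 3 was left out Th, Slc6a3, Ddc and Slc18a2 stood at 0.97, 2.65, 1.12 and 1.82.

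The gene of the inhibitor's target and those of its partners gave 1 call. Btk had 0.965, 0.328 and 0.951 CPM in controls and 0.725, 0.763 and 0.911 CPM after the low dose (log2 fold change 0.09, SE 0.42, adjusted p = 0.916). Of 19 genes of BTK signalling, 1 was called higher, against 2.74% of all genes, and 0 lower (median 0.12). This was Blnk, an adaptor protein of B cell receptor signalling, at 1.75, 0.870 and 1.59 CPM in controls and 5.82, 3.26 and 6.73 CPM after the low dose (adjusted p = 0.0228, and 0.0692 without control 2). The B cell gene Ms4a1 was at or near 0 in the 6 libraries, with at most 0.0506 CPM. Of the 6 tested B and T cell genes, 1 was called lower, against 2.66% of all genes. Trac, the constant region of the T cell receptor alpha chain, had 1.28, 2.05 and 2.26 CPM in controls and 0.574, 0.682 and 0.368 CPM after the low dose (log2 fold change -1.78, adjusted p = 0.0165, and 0.0459 without control 2), while the T cell gene Cd3e had at most 0.134 CPM. Blnk and Trac reached adjusted p = 0.0846 and 0.0674 without low-dose replicate 3.

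Microglial and inflammatory genes gave few calls. Of 20 homeostatic microglia genes 0 were called (median 0.26, and -0.08 without control 2). With control 2 and levodopa 2 both left out, 3 of the 20 were called lower and 0 higher, against 4.48% and 3.85% of all genes. The summed level of the 20 genes was 228.9 CPM in control 2 and 528.5 to 652.1 CPM in the other 5 libraries. Of 15 genes of activated microglia, 1 was called higher, against 2.74% of all genes. This was the lipid carrier gene Apoe, which astrocytes also express, at 1035, 935 and 1163 CPM against 1456, 1565 and 1725 CPM (log2 fold change 0.60, adjusted p = 0.0369, and 0.104 without control 2). Of 13 inflammation genes and 20 interferon response genes 0 were called, with medians of 0.11 and -0.01.

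**Figure D3:**
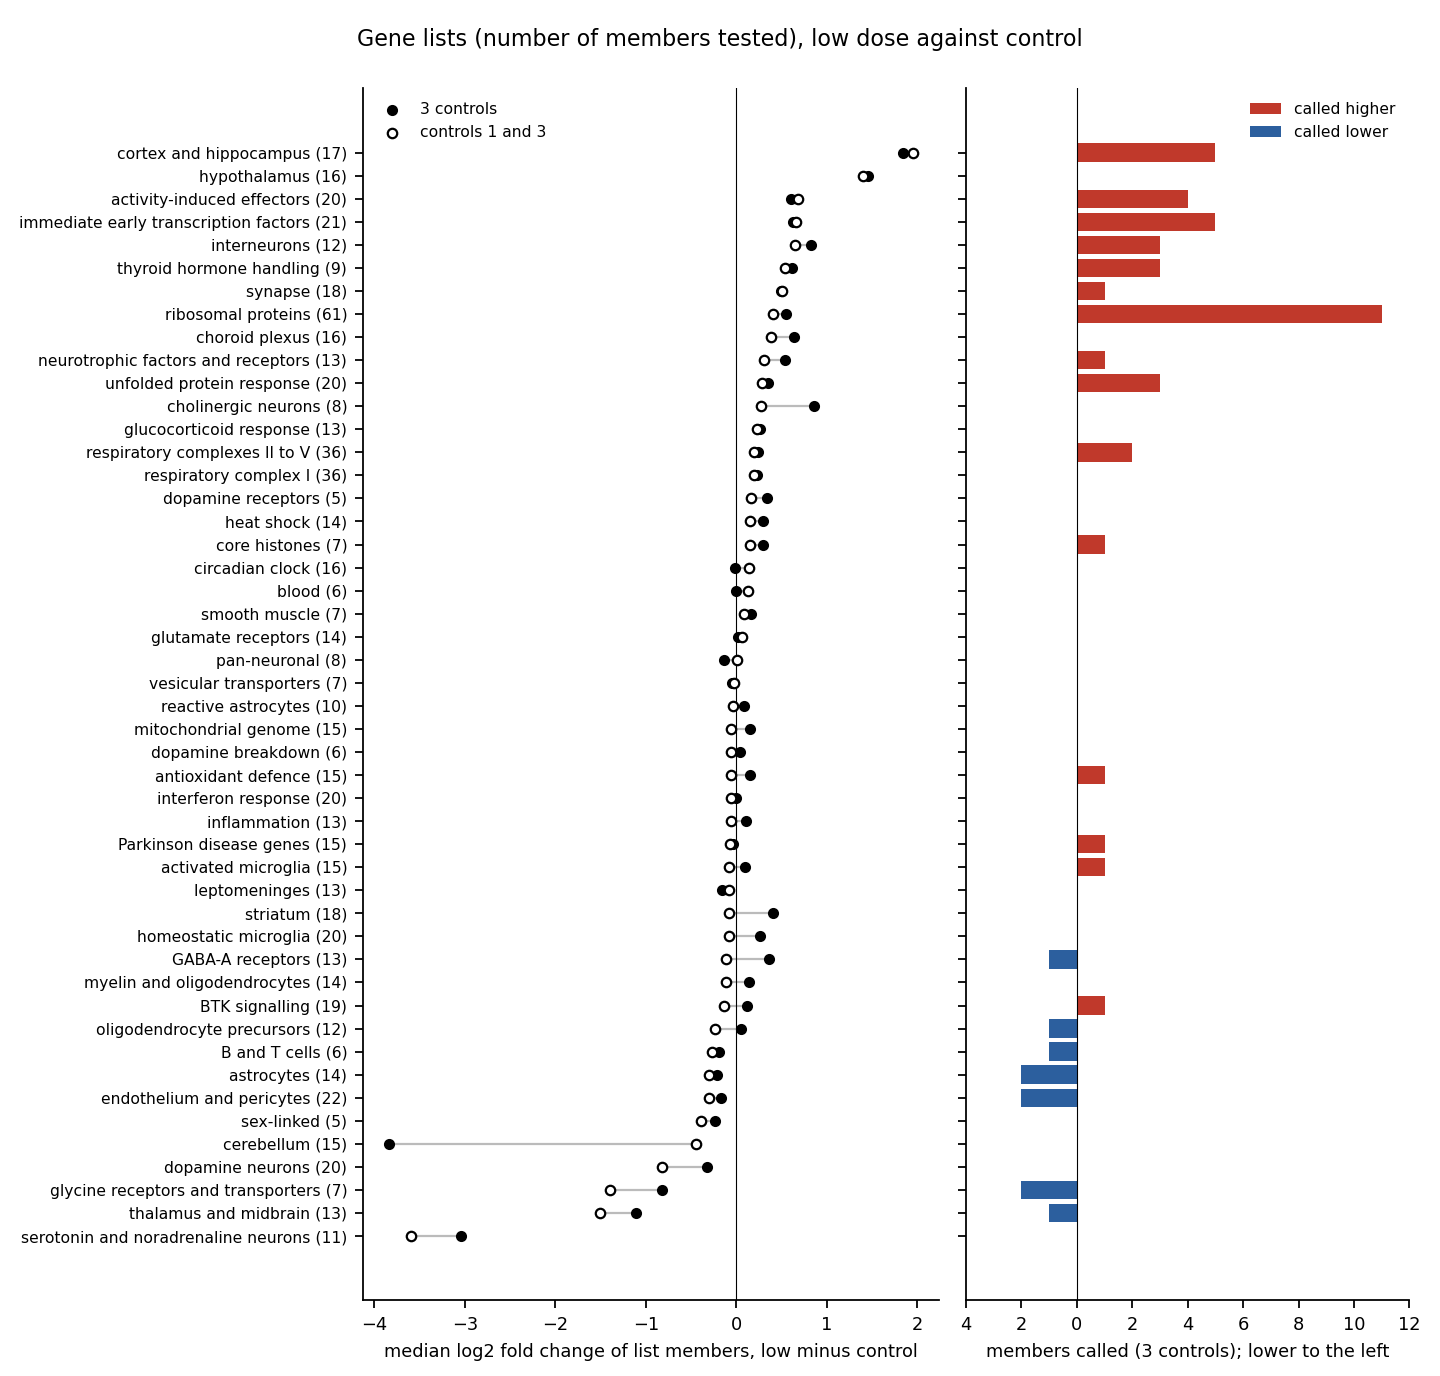
Left, the median log2 fold change of each gene list with 3 controls (filled) and with controls 1 and 3 (open); right, the number of members called higher (red) or lower (blue), with the number tested beside each list name. The cortex and hippocampus list has the highest medians, 1.84 and 1.95, and the cerebellum list moves most, from -3.84 to -0.44, when control 2 is left out.

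Among the falls named by the rule, the 15 largest rises and 15 largest falls without overlap between groups, were Barhl1, Barhl2, Tfap2b, Lhx1, Pax3, Mab21l1, Mab21l2, Ebf1 and Ebf3. These are genes of embryonic patterning or neuron differentiation that belong to no list used here. Barhl1, a homeobox gene, had 6.77, 15.8 and 9.95 CPM in controls and 0, 0.568 and 0.0876 CPM after the low dose (log2 fold change -5.61, SE 1.24, adjusted p = 0.0289). Lhx1, a homeobox gene of Purkinje cells and other neurons, had 8.30, 65.3 and 9.15 CPM against 0.624, 2.78 and 0.771 CPM. Control 2 was the highest control in Barhl1, Lhx1, Barhl2, Tfap2b, Pax3, Mab21l1 and Ebf1. The log2 fold change of Lhx1 was -4.31 with control 2 and -2.64 without it, that of Barhl2 -4.94 and -3.17, and that of Tfap2b -5.26 and -4.72. None of the genes with control 2 as highest control was called without it (adjusted p from 0.0644 for Barhl1 to 0.113 for Pax3). Mab21l2 was not either (adjusted p = 0.0623), nor in any other fit that left out 1 library. With control 2 and levodopa 2 both left out, these genes and Mab21l2 were each called lower. Their adjusted p in that fit ran from 0.00834 for Barhl2 to 0.0472 for Pax3. The cerebellar list was highest in control 2, as given above. Its part in these falls was not tested beyond leaving that library out, alone or with levodopa 2, and the fit with regional covariates. That fit holds the cerebellar, cortical and thalamic scores together, so it cannot single out the cerebellar one. In it Barhl1, Barhl2, Lhx1 and Tfap2b stood at -0.657, -0.95, -0.98 and 0.272 on the log2 scale, none of them called. Syt2, a synaptotagmin gene of fast-spiking and hindbrain neurons, had 125, 543 and 284 CPM against 30, 69.8 and 37.4 CPM and had an adjusted p of 0.11 without control 2.

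For Ebf3 and Glra1, control 2 was the lowest control. Ebf3, a helix-loop-helix factor of neuron differentiation (chromosome 7, 137193671 to 137322805), had 28.9, 17.7 and 41.1 CPM in controls and 3.96, 7.48 and 5.17 CPM after the low dose. Its log2 fold change was -2.40 (SE 0.41, adjusted p = 0.0148) and -2.66 without control 2 (adjusted p = 0.0145). Its relative Ebf2 fell by 1.75 on the log2 scale and was called with and without control 2 (adjusted p = 0.0183 and 0.0499). Both lost the call without low-dose replicate 3 (adjusted p = 0.0642 and 0.0682). Of 7 glycine receptor and transporter genes, 2 were called lower, against 2.66% of all genes, and 0 higher (median -0.83). Glra1, the adult glycine receptor subunit of brainstem and spinal cord, had 5.61, 1.76 and 10.4 CPM against 0.135, 0.990 and 0.140 CPM, a log2 fold change of -3.80 (SE 0.93, adjusted p = 0.0384) and of -4.23 without control 2 (adjusted p = 0.0452). The glycine transporter gene Slc6a5 had 0.683, 55.3 and 10.2 CPM against 0.101, 0.796 and 0.123 CPM and lost the call without control 2 (adjusted p = 0.131). Without low-dose replicate 3, Glra1 had an adjusted p of 0.136.

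Of 13 thalamic and midbrain genes 1 was called lower, against 2.66% of all genes. This was Rora, a nuclear receptor of thalamic and Purkinje neurons, at 116, 439 and 207 CPM in controls against 47.1, 61.2 and 75.2 CPM (adjusted p = 0.039, and 0.127 without control 2). The list median was -1.11. The summed level of these 13 genes was 869, 628.8 and 1480 CPM in controls and 266.4, 417.4 and 510 CPM after the low dose, so that each low-dose library lay below each control. With control 2 and levodopa 2 left out, 7 of the 13 were called lower. Genes called lower with all libraries thus included Glra1, Slc6a5 and Rora, of which Slc6a5 and Rora lost the call without control 2. Several genes of cortex were higher, and treatment and sampled region cannot be told apart for these genes.

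Astrocyte, oligodendrocyte precursor and vascular lists had 5 calls in all, each lower, against 2.66% of all genes called lower. Each was lost when control 2 alone was left out. Of 14 astrocyte genes 2 were called lower and 0 higher (median -0.21). Slc4a4, a sodium bicarbonate transporter, had 310, 619 and 304 CPM against 147, 220 and 120 CPM (log2 fold change -1.34, adjusted p = 0.0274), and the water channel gene Aqp4 had 198, 359 and 280 CPM against 109, 151 and 116 CPM (log2 fold change -1.16, adjusted p = 0.0451). Neither was called without control 2 (adjusted p = 0.0793 and 0.137). Kcnj10, a potassium channel gene outside the list, had 453, 308 and 560 CPM against 206, 270 and 229 CPM and was called with and without control 2 (adjusted p = 0.0489 and 0.0424). In every other fit that left out 1 library Kcnj10 was not called, with adjusted p up to 0.145 without low-dose replicate 3. Of 22 endothelial and pericyte genes 2 were called lower, Abcb1a, a drug pump of the blood-brain barrier (27.4 ± 4.97 to 13.7 ± 3.04 CPM, adjusted p = 0.0395), and the potassium channel subunit gene Abcc9 (adjusted p = 0.0338). Without control 2 these stood at adjusted p = 0.0788 and 0.0915. Of 14 myelin genes 0 were called, and of 12 oligodendrocyte precursor genes 1 was called lower, the receptor phosphatase gene Ptprz1, at 280, 493 and 292 CPM against 203, 231 and 192 CPM (adjusted p = 0.0469, and 0.141 without control 2). With control 2 and levodopa 2 both left out, Slc4a4, Ptprz1, Abcb1a, Abcc9 and Kcnj10 were called (adjusted p from 0.00817 for Kcnj10 to 0.0381 for Abcc9). Aqp4 was not called in that fit (adjusted p = 0.0582). With GC and length trends removed, none of these 6 genes was called (adjusted p from 0.0588 for Slc4a4 to 0.145 for Ptprz1).

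Ribosomal protein genes, the largest list, had the most calls. Of 61, 11 were called higher, against 2.74% of all genes, and 0 lower (median 0.55). Without overlap between groups 48 were higher, against 14% of all genes. Rplp2, a protein of the ribosomal stalk, had 64.5, 51.8 and 63.6 CPM in controls and 87.8, 133 and 112 CPM after the low dose (log2 fold change 0.89, SE 0.17, adjusted p = 0.0195). Rpl36 rose by 0.98 on the log2 scale and Rps2, picked after its values were seen, by 0.87. Without control 2, 0 of the 61 were called and the median was 0.40, while 13 were called with both cerebellum-rich libraries left out. The mitochondrial ribosomal RNAs, which are made inside mitochondria, took 0.761%, 0.244% and 0.803% of reads in controls and 1.15%, 0.937% and 1.46% after the low dose. They took 1.31%, 1.48% and 1% after the high dose and 0.656% to 0.814% after MPTP alone. Of the 6 libraries compared, control 2 had the lowest share and the low-dose libraries the highest, and whether RNA handling differed was not tested. Of the nuclear genes of respiratory complexes II to V, 2 of 36 were called higher, against 2.74% of all genes, Uqcr11 of complex III and Atp5e of the ATP synthase, with log2 fold changes of 0.51 and 0.88. Of 36 complex I genes 0 were called (median 0.23). None of these respiratory genes was called without control 2, where Uqcr11 and Atp5e had adjusted p = 0.0797 and 0.0741. With GC and length trends removed, Uqcr11 and Atp5e stood at 0.07 and 0.66 (log2, adjusted p = 0.775 and 0.0842), and Rplp2, Rpl36 and Rps2 at 0.56, 0.53 and 0.57 (adjusted p = 0.0554, 0.125 and 0.0848).

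Of 20 genes of the unfolded protein response, which adjusts folding capacity in the endoplasmic reticulum, 3 were called higher, against 2.74% of all genes, and 0 lower (median 0.35). The transcription factor gene Xbp1 had 69.6, 58.8 and 70.6 CPM against 94.8, 90.6 and 93.3 CPM (log2 fold change 0.49, adjusted p = 0.0378). The chaperone cofactor gene Sdf2l1 and the calcium-binding chaperone gene Creld2 rose by 1.02 and 0.63 on the log2 scale. Without control 2 the adjusted p of the 3 genes ran from 0.126 to 0.137. With GC and length trends removed, Xbp1, Sdf2l1 and Creld2 stood at 0.30, 0.71 and 0.34 (log2) and none was called (adjusted p = 0.223, 0.138 and 0.298). Of 14 heat shock genes 0 were called (median 0.29).

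Some calls held whichever single library was left out. Of the 1178 calls, 68 were kept in each of the 6 fits that left out 1 library, 41 higher and 27 lower. Those with the smallest p were mostly predicted genes, pseudogenes or genes with near-identical copies, such as Ccl21b and Tmem254a below. Akap12, a scaffold of protein kinase A (chromosome 10, 4266329 to 4359471), had 63.6, 102 and 92.4 CPM in controls and 22.7, 33.2 and 29.99 CPM after the low dose. Its log2 fold change was -1.59 (SE 0.20, adjusted p = 0.00272), with a range of -1.77 to -1.43 over those 6 fits. Unc13c, a synaptic vesicle priming factor abundant in cerebellum, had 218, 265 and 225 CPM against 62.1, 74.5 and 54.6 CPM (log2 fold change -1.89, adjusted p = 0.00727). With regional covariates its log2 fold change was -0.33 (adjusted p = 0.898). Cd59a, an inhibitor of complement lysis, had 27.6, 22.1 and 34.0 CPM against 10.4, 8.52 and 11.4 CPM (adjusted p = 0.0105). Among those kept and higher were Epn1, an endocytic adaptor gene, at 169, 184 and 169 CPM against 311, 278 and 289 CPM (log2 fold change 0.75, SE 0.10, adjusted p = 0.00367), and Pfn1, an actin-binding protein gene, at 49.6, 59.1 and 52.1 CPM against 74.3, 87.6 and 86.5 CPM (adjusted p = 0.00946). Among the genes called with and without control 2 that lost the call without low-dose replicate 3 were Scn1a, a voltage-gated sodium channel gene, at 238, 298 and 381 CPM against 109, 141 and 117 CPM, Vxn, a regulator of neuron differentiation, at 29.9, 7.41 and 38.4 CPM against 274, 171 and 337 CPM, and Igfbp4, an insulin-like growth factor binding protein gene, with a log2 fold change of 2.06. Their adjusted p without that library was 0.0674, 0.0725 and 0.0605. The histone gene H2ac18 rose by 0.84 on the log2 scale and had an adjusted p of 0.051 without control 2.

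Lowly expressed genes gave the largest folds among the rises. The transcription factor gene Ovol2 and Itprid1 had 0 reads in each control and means of 3.13 and 1.32 CPM after the low dose, at least 67.8-fold and 28.6-fold above the level of 3 reads in a control library. Myl4, a myosin light chain gene, had 0.861, 0.443 and 0.995 CPM against 12.0, 6.22 and 14.4 CPM, and the keratin gene Krt80 had 0.312, 0.131 and 0.342 CPM against 4.71, 2.27 and 4.52 CPM. Dkkl1 and the signalling protein gene Ccn3 rose by 4.47 and 3.90 on the log2 scale, the first of them called without control 2 as well (adjusted p = 0.0469). Myl4 and Krt80 kept their calls in each of the 6 fits that left out 1 library, and Ccn3 lost its call in each (adjusted p from 0.0536 to 0.0959). Ovol2, Itprid1 and Dkkl1 lost theirs only without low-dose replicate 3 (adjusted p = 0.0638, 0.0661 and 0.0583). The chemokine gene Ccl21b rose from 0.0148, 0.0493 and 0.0446 CPM to 4.56, 2.39 and 8.67 CPM (adjusted p = 0.000469), and Tmem254a from 6.59, 4.81 and 8.05 CPM to 18.9, 19.7 and 20.9 CPM (adjusted p = 0.00156). Both have near-identical copies beside them, so that their counts are uncertain.

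Some glycolytic genes were among those called with and without control 2. Ldha, a lactate dehydrogenase gene, had 138, 117 and 108 CPM against 226, 229 and 268 CPM (log2 fold change 1.00, SE 0.17, adjusted p = 0.0137, and 0.0424 without control 2). Pfkl, a phosphofructokinase gene, had 99.3, 92.4 and 98.6 CPM against 154, 164 and 170 CPM (log2 fold change 0.75, adjusted p = 0.0159, and 0.0499 without control 2). They were picked from the 227 genes after their values were seen, and each lost its call without low-dose replicate 3 (adjusted p = 0.0612 and 0.0654).

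Called genes differed in the length and base composition of their transcripts. The longest transcript had a median of 2236 bases and 54.7% GC in genes called higher, 5052 bases and 46.2% GC in genes called lower, and 3016 bases and 49.7% GC in all genes with a value. Genes were sorted into 5 equal classes by transcript length. In the class of the longest, 1.01% were called higher and 7.47% lower, and in the class of the shortest 4.82% were higher and 0.98% lower. Relative to the mean of all libraries, the longest class minus the shortest stood at 0.15, 0.31 and 0.05 (log2) in controls 1, 2 and 3 and at -0.13, -0.16 and -0.29 in low-dose libraries 1, 2 and 3, so the groups did not overlap. In the high-dose libraries it was -0.13, -0.28 and -0.24, and in the MPTP libraries 0.03, 0.14 and 0.15. For GC content the groups overlapped. The class of highest GC minus the lowest stood at -0.155, -0.002 and -0.175 (log2) in controls 1, 2 and 3. In low-dose libraries 1, 2 and 3 it stood at 0.18, 0.133 and -0.0316. With smooth trends in GC content and length removed from each library, 424 of 18880 genes were called, 205 higher and 219 lower. Of the 68 named called genes with a value in that fit, 31 lost the call and 37 kept it. Nr4a3, Neurod6, Cort, Ebf3 and Akap12 were among those kept, and so was Thra, with a log2 fold change of 0.44 in place of 0.69. Epn1, Pfn1, Jund and Apoe lost their calls, with log2 fold changes of 0.42, 0.35, 0.01 and 0.26, as did the genes named with their values from this fit above.

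**Figure D4:**
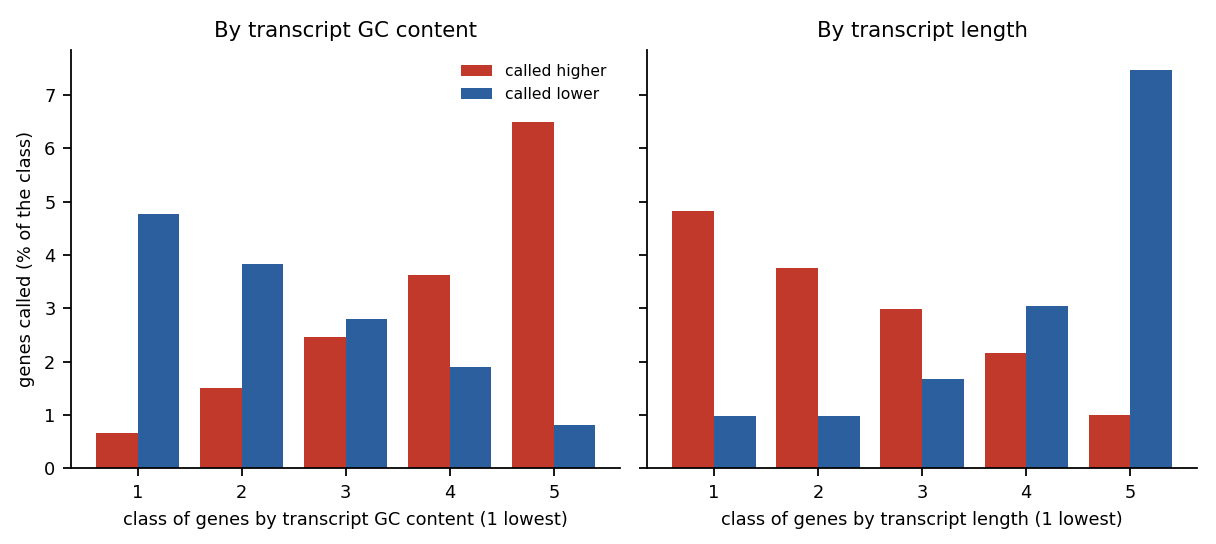
Percentage of genes called higher (red) or lower (blue) after the low dose in each of 5 equal classes of genes by transcript GC content (left) and transcript length (right). Higher calls climb from 0.662% to 6.49% with GC content and lower calls climb from 0.98% to 7.47% with length.

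The same genes were read in the group given MPTP alone. Against MPTP alone the low dose had 1042 genes higher (4.78%) and 819 lower (3.75%). MPTP alone against control had 0 called with edgeR, with 1445 of 21821 genes at an unadjusted p under 0.05. The comparisons share libraries, so the values are given side by side. Neurod6 was at 1.21, 2.55 and 1.50 CPM after MPTP alone, within the control range of 0.980 to 7.03 CPM, and its log2 fold change of low dose against MPTP was 5.47 (adjusted p = 0.00371). Nr4a3 was at 6.31, 9.04 and 5.95 CPM after MPTP, a log2 fold change of 2.71 (adjusted p = 0.00494). Thra was at 424, 340 and 367 CPM and Akap12 at 96.1, 90.1 and 92.1 CPM after MPTP, with log2 fold changes of 0.75 and -1.70 of low dose against MPTP (adjusted p = 0.00371 and 0.0017). Tfap2b and Lhx1 had 4.71 to 33.2 and 7.46 to 11.4 CPM after MPTP and were not called against it (adjusted p = 0.0691 and 0.0908). Nr4a2 was at 18.3, 30.9 and 8.96 CPM after MPTP, with a log2 fold change of -0.02 (adjusted p = 0.989).

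Between the doses no gene was called, 0 higher and 0 lower (0%), with 486 of 21821 genes at an unadjusted p under 0.05. This does not show that the doses act alike. High-dose libraries 1, 2 and 3 had 79.3, 93.3 and 20.0 CPM of Neurod6, 34.7, 37.2 and 19.9 CPM of Nr4a3, 554, 538 and 479 CPM of Thra and 13.2, 10.2 and 14.1 CPM of Ebf3. High-dose 3 was thus lowest in the 3 genes that rose. For Thra each high-dose library lay between the low-dose and the control values, and so it did for Ebf3. Against control, the high dose had 47 genes called higher and 35 lower.

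**Figure D5:**
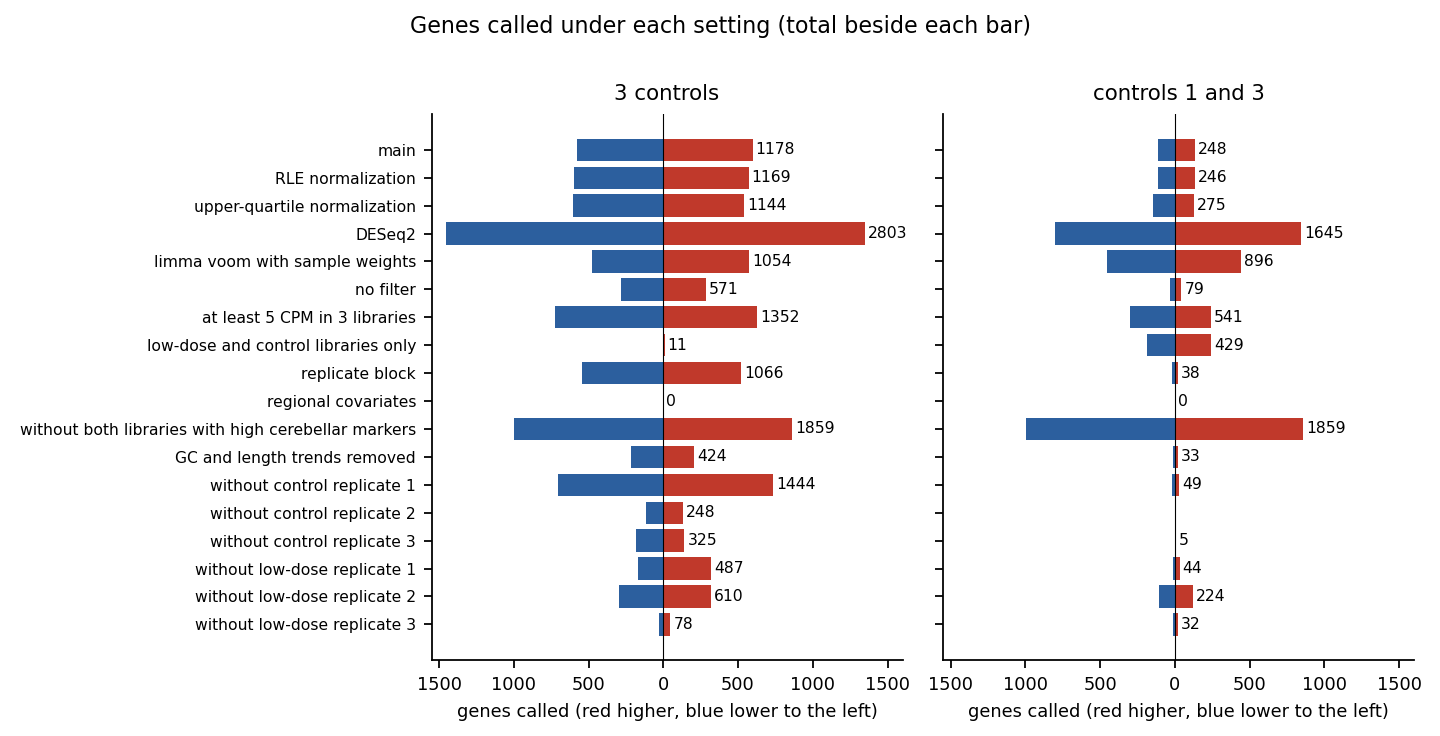
Number of genes called higher (red, to the right) and lower (blue, to the left) after the low dose under each setting (y axis), with 3 controls (left) and with controls 1 and 3 (right), and the total beside each bar. Totals run from 0 with regional covariates to 2803 with DESeq2 on the left and from 0 to 1859 on the right.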

How the data were processed

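Strand-marked messenger RNA libraries (TruSeq Stranded mRNA, per the labels' protocols) were deposited as raw read counts per gene symbol, which the authors made on GRCm38/mm10 with HISAT2 2.1.0, StringTie 2.1.3b, Trimmomatic and bcl2fastq 2.20.0, per the submitters' processing notes. The sources used here do not give the annotation, strand setting and handling of shared reads. Inhibitor libraries' files have 24 empty trailing columns and the others 51.

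The counts were tested with edgeR 4.0.16 (R 4.3.3): scaling was TMM, the low-count filter was filterByExpr with the groups, and the 15 libraries shared 1 quasi-likelihood model with a term per group. Calls had a Benjamini-Hochberg adjusted p under 0.05. Standard errors are the fold change over the square root of F. Levels are TMM-scaled CPM. Alternatives used DESeq2 1.42.0 and limma 3.58.1. The tests were checked on simulated counts. Named genes were the 15 largest rises and falls among calls with at least 1 CPM in the higher group and no overlap, with and without control 2, genes called in both, up to 4 members of each list, and study genes; a selection is printed, and some genes are not reported here. The comparison, the 50 gene lists and the rules were chosen with earlier results of these data known. Of 791 list entries 769 were in the files. Transcript GC and length come from GENCODE vM21, coordinates and promoters from RefSeq GRCm38.p6. At 3 reads a library has at most 0.0509 CPM here, and such limits cover counting error only. No libraries of a group agreed within sampling noise (chi-square per degree of freedom 60.8 to 468).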

Additional observations from a re-analysis of the deposited data

How the results depend on the processing

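The 1178 calls with all libraries became 2803 with DESeq2, 571 without a filter, 11 with only the low-dose and control libraries fitted, 0 with regional covariates (1347 at an unadjusted p under 0.05), 1859 without both libraries with high cerebellar markers and 424 with GC and length trends removed, the last an alternative added after seeing the data. They ranged from 78 to 1444 with 1 library left out. The 248 calls without control 2 became 1645 with DESeq2, 896 with limma voom, 79 without a filter, 541 at 5 CPM in 3 libraries, 429 with only the compared libraries, 38 with the replicate block, 0 with regional covariates (1300 unadjusted), 1859 without levodopa 2 as well, 33 with GC and length trends removed, and 5 to 224 with a further library left out. RLE and upper-quartile scaling changed neither count by over 1.5 times. The cause of these shifts was not tested.

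Equal replicate numbers did not pair the libraries: deviations of controls and low-dose libraries correlated at 0.0501, -0.0422 and 0.00738 for numbers 1, 2 and 3, and with all libraries the replicate block gave 1066 calls. With the block, Th, Slc6a3, Ddc and Slc18a2, none of them called, turned to 0.245, 0.327, 0.239 and 0.373 on the log2 scale.

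Of the 69 called genes named above, 11 kept the call in each of the 6 fits without 1 library, and 58 lost it in at least 1, each without a change of sign. With regional covariates log2 fold changes turned to -1.06 for Tbr1, -0.406 for Mef2c, -1.79 for Ccn3, 0.0944 for Aqp4, 1.51 for Slc6a5, 0.272 for Tfap2b, 0.78 for Mab21l1, 0.147 for Ebf1 and 1.03 for Syt2, and, among genes not called, to -0.219 for Nr4a1, -0.383 for Btk, -0.827 for Nr4a2, 1.39 for Th, 7.04 for Slc6a3, 1.3 for Ddc and 3.41 for Slc18a2. Btk also turned to -0.222 with limma voom and -0.269 without both cerebellum-rich libraries, and ranged from -0.269 to 0.316 with 1 library left out. In those fits Nr4a2 ranged from -0.0548 to 1.21, Th from -1.21 to 0.973, Slc6a3 from -4.35 to 2.65, Ddc from -0.906 to 1.12 and Slc18a2 from -1.44 to 1.82.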
